A study of Mus musculus with 12 samples.

Results

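Lower glycolysis and lactate export were followed through 10 genes: Tpi1, Gapdh, Pgk1, Pgam1, Eno1, Eno2, Pkm, Ldha, Ldhb and Slc16a3. They were taken by symbol from 32544 genes in the count table, and all 10 were among the 14285 genes that passed the filter on low counts. RNA had been sequenced from bone marrow-derived macrophages (BMDMs) and from NIH/3T3 cells, a mouse embryonic fibroblast line, with 3 libraries in each of 4 groups. The BMDMs, grown from bone marrow with medium from L929 cells and taken 24 h after seeding, were labelled WT (LysMCre mice) or PHD2cko (a conditional ko of PHD2), on the C57Bl6/J background. The deletion is driven by LysM-Cre, which is active in myeloid cells, and both groups carry the Cre. The 3T3 cells had been starved of serum and then kept for 72 h in medium conditioned by WT or by PHD2cko BMDMs. The sources do not say which oxygen condition the sequenced cultures had, nor whether the libraries of a group came from separate mice, so the p-values measure the spread between these libraries, which may be technical.

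The lower part of glycolysis turns triose phosphates into pyruvate and returns ATP and NADH. Lactate dehydrogenase then passes the electrons of NADH to pyruvate, which regenerates NAD+ for GAPDH, and monocarboxylate transporters carry the lactate out of the cell. PHD2, encoded by Egln1, hydroxylates the α subunits of hypoxia-inducible factor (HIF) when oxygen is present and so marks them for degradation, and most genes of this stretch are textbook HIF-1 targets. In macrophages, HIF-1 and lactate output are known for their link to inflammatory activation.

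Library totals ran from 15516465 to 25199770 counts, so that 3 counts, the level below which no fold is given, are at most 0.193 CPM. CPM are counts over the library total scaled to 1e+06, plain for this limit and for the marker sums and with the total corrected by the TMM factor for the values of single genes. Summed over 23 macrophage markers, BMDM libraries held 47683 to 48863 CPM in WT and 42872 to 44483 CPM in PHD2cko. The 3T3 libraries held 23.6 to 25.3 CPM of them in WT medium and 223 to 996 CPM in PHD2cko medium. Of these markers 22 had more than 3 counts in a 3T3 library in WT medium, all but C1qa, and 23 in PHD2cko medium. Summed over 12 fibroblast markers, the 3T3 libraries held 26071 to 30455 CPM in WT medium and 34689 to 36197 CPM in PHD2cko medium, and the BMDM libraries 6.65 to 14.5 CPM. Egln1, the gene to be deleted, was at 54.7 to 55.8 CPM in WT BMDMs and at 68.3 to 71.6 CPM in those labelled PHD2cko (log2 fold change 0.33, adjusted p = 0.00203). This total over the whole gene was not lower, but it does not show whether an exon was lost, so the label is used here as a name. As its own check of the knockdown, the paper measured PHD2 mRNA in PHD2cko BMDMs against controls. It also reports more HIF1α protein in PHD2cko BMDMs. Egln3, which encodes a related prolyl hydroxylase and is a known HIF target, was at 4.32 ± 0.247 CPM in WT BMDMs and at 16.8 ± 0.700 CPM (SD, n = 3 each) in those labelled PHD2cko (log2 fold change 1.96, adjusted p = 1.8e-07). Replicate 1 of the 3T3 cells in WT medium stood apart: the chi-square per degree of freedom over all genes was 23.1 and 24.9 against the other replicates of its group and 1.97 to 7.90 in every other pair of replicates.

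The bases upstream of RefSeq transcript starts are shown for 5 genes because HIF binds DNA at ACGTG or GCGTG and the genes below moved to unequal extents. Each sequence is the 250 bases before a RefSeq transcript start on GRCm38.p6, 5′ to 3′ on the gene's strand, and capitals mark every ACGTG or GCGTG on either strand (CACGT and CACGC when read on the gene's strand). Pgk1 lies at chrX:106186850-106187099 (+), Ldha at chr7:46845554-46845803 (+), Slc16a3 at chr11:120948817-120949066 (+), Tpi1 at chr6:124814159-124814408 (-) and Ldhb at chr6:142507958-142508207 (-).
Pgk1: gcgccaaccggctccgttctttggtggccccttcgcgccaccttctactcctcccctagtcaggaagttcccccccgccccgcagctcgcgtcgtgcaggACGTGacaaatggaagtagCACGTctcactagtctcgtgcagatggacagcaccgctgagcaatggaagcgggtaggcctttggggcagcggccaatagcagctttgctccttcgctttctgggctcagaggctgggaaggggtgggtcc
Ldha: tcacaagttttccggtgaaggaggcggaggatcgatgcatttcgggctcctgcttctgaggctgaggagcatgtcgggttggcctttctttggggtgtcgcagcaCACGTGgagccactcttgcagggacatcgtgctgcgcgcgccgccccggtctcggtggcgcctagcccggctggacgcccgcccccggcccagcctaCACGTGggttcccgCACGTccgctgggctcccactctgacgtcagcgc
Slc16a3: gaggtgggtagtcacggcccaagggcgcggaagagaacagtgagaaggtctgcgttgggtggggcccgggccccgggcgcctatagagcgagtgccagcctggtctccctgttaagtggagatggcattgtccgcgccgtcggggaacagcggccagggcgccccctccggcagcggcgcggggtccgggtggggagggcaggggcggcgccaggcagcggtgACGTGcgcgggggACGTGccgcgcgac
Tpi1: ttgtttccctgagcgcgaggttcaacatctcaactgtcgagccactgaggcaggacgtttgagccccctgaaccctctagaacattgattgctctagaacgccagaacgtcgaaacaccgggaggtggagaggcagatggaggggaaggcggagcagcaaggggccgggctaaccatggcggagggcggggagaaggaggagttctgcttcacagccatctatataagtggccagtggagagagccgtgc
Ldhb: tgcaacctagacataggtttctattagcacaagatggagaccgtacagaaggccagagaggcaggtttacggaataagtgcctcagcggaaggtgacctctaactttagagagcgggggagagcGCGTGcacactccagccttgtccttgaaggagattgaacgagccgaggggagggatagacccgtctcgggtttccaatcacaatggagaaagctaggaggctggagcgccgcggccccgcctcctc
The Pgk1 and Slc16a3 windows held 2 matches to ACGTG each, and the Ldha window shown held 5, since each CACGTG holds the motif on both strands. Ldha has another RefSeq window, from 46846832 to 46847081 on chromosome 7, which held no ACGTG and 1 match to GCGTG. The Ldhb window held 1 match to GCGTG, and the Tpi1 window held no match. RefSeq gave 14 such windows for the 10 genes. ACGTG was in at least 1 window of 5 of the 10 genes and either motif in 8 of them, against 18.5% and 41.5% of all 27025 genes with a window. Tpi1 and Eno2 were the members without a match to either motif. In GENCODE the gene begins at 46841475 for Ldha, 120948480 for Slc16a3 and 124814296 for Tpi1. The Ldha and Slc16a3 windows and part of the Tpi1 window thus lie inside the annotated gene. A match describes the letters and not a bound site, and a longer region was not searched.

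In BMDMs nearly the whole stretch rose. Of the 10 genes, 9 were higher in libraries labelled PHD2cko (edgeR quasi-likelihood test, Benjamini-Hochberg adjusted p under 0.05), where 3.38% of all genes tested were called higher, and none was called lower, where 3.35% were (Ldhb was lower at an unadjusted p under 0.05 and was called by DESeq2). The values of the labels stayed apart for each of the 10 genes, with 9 above and Ldhb below, against 16.3% of all genes above and 15.6% below. The median log2 fold change was 0.58 over the 10 genes and 0.00022 over all genes tested. Together the 10 genes took 0.368% ± 0.00726 (SD, n = 3) of all counts in WT BMDMs and 0.550% ± 0.0200 (SD, n = 3) in those labelled PHD2cko. In such bulk RNA a change in the share of cells that make an mRNA and a change in mRNA per cell cannot be told apart.

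**Figure D1:**
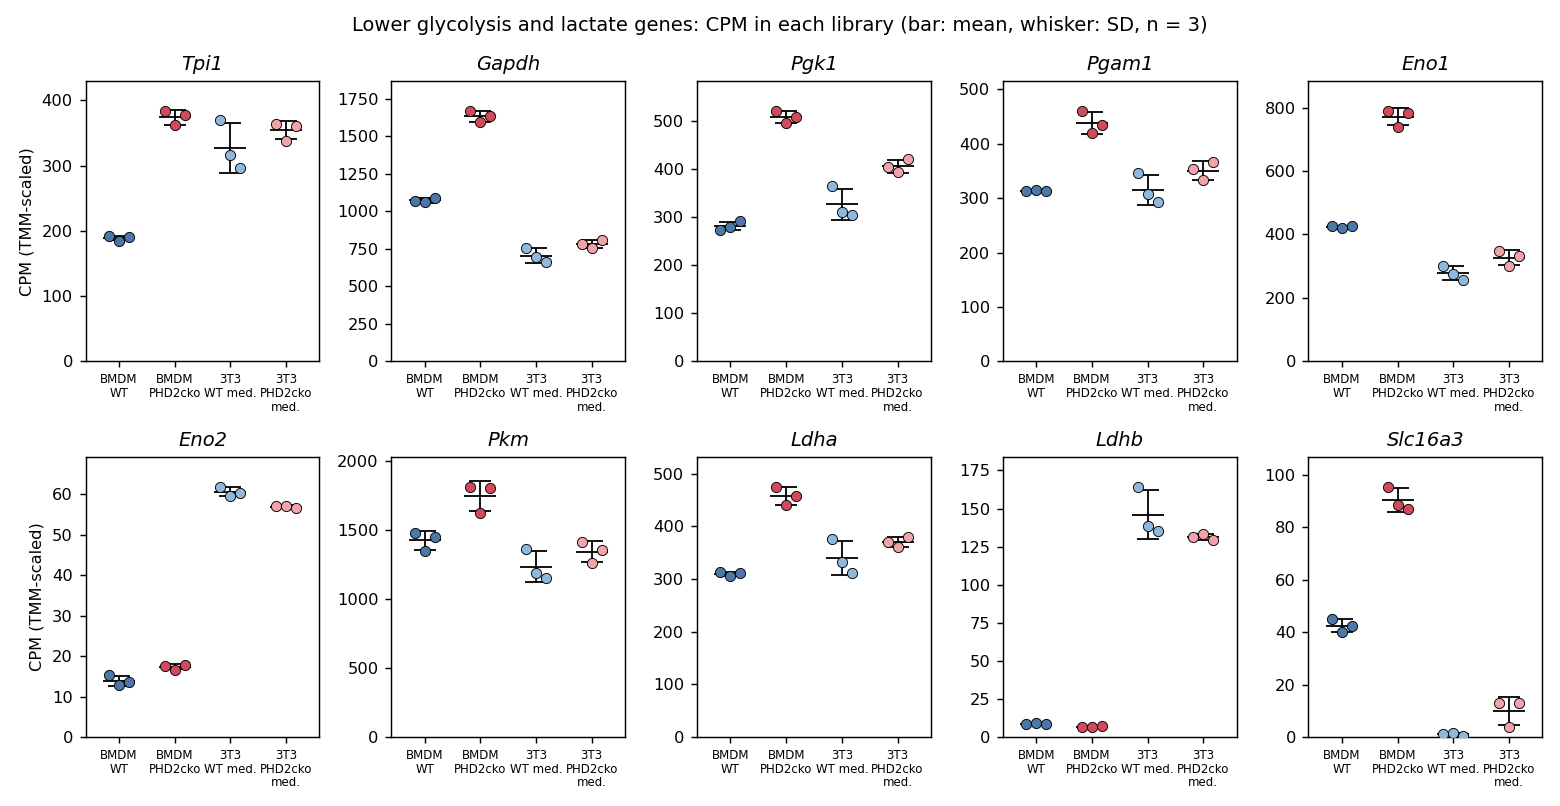
CPM (scaled by TMM) of the 10 genes on a linear axis from 0, with 1 point per library, a bar at the mean and a whisker of 1 SD (n = 3) for BMDMs labelled WT or PHD2cko and 3T3 cells in medium of either label. The red BMDM points lie above the dark blue ones in 9 panels and below them for Ldhb, and the 3T3 points overlap between media except for Pgk1 and Slc16a3 (higher in PHD2cko medium) and Eno2 and Ldhb (lower).

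The triose steps come first. Tpi1, whose enzyme interconverts the triose phosphates, was at 191, 185 and 191 CPM in the WT replicates and at 383, 361 and 378 CPM in those labelled PHD2cko. The 2 sets lay far apart relative to their spread, with a 1.98-fold higher level (log2 fold change 0.99 ± 0.0724 SE, adjusted p = 3.9e-06). Gapdh, whose enzyme makes the NADH of glycolysis and whose mRNA is a common reference gene, was at 1071, 1059.8 and 1089 CPM in WT and at 1669, 1593 and 1639 CPM in PHD2cko BMDMs. It was 1.52-fold higher (log2 0.61 ± 0.0594, adjusted p = 4.5e-05), so that its level was not constant between these groups.

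Pgk1 encodes phosphoglycerate kinase, the first ATP-forming step. It was at 274, 279 and 291 CPM in WT and at 521, 495 and 509 CPM in PHD2cko BMDMs, which is 1.81-fold higher (log2 0.85 ± 0.0665, adjusted p = 6.3e-06). Pgam1, whose mutase moves the phosphate group before the enolase step, was at 312, 314 and 312 CPM in WT and at 460.0, 420.1 and 434 CPM in PHD2cko BMDMs. Its 1.40-fold rise (log2 0.49 ± 0.0656, adjusted p = 0.00058) was smaller than that of its neighbours in the pathway, Pgk1 and Eno1, although the difference between genes was not tested.

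Of the enolases, Eno1 is the form found in most tissues and Eno2 the form best known from neurons. Eno1 was at 425, 422 and 427 CPM in WT and at 789, 739.7 and 783 CPM in PHD2cko BMDMs (1.82-fold, log2 0.86 ± 0.0683, adjusted p = 6.8e-06). Eno2 was low in both groups, with 15.3, 12.8 and 13.6 CPM in WT and 17.6, 16.7 and 17.8 CPM in PHD2cko BMDMs. Its 1.26-fold rise (log2 0.33 ± 0.0663) passed with an adjusted p of 0.0094, and with 1 of the 6 libraries left out in turn it passed in 5 of the 6 fits.

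Pkm encodes the muscle pyruvate kinases, PKM1 and PKM2, which arise from alternative exons and are not resolved in counts per gene. It was the most counted of the 10 genes, at 1483, 1348 and 1450.0 CPM in WT and 1815, 1622 and 1806 CPM in PHD2cko BMDMs. Its fold was the smallest among the 9 that rose (1.22-fold, log2 0.29 ± 0.0782, adjusted p = 0.0429). The call was near the threshold, since it held in 1 of the 6 fits that left out a library, with log2 fold changes from 0.25 to 0.35.

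The lactate dehydrogenase genes parted. Ldha, whose subunit favours the reduction of pyruvate to lactate, was at 312, 306 and 311 CPM in WT and at 475, 440.2 and 458 CPM in PHD2cko BMDMs (1.48-fold, log2 0.56 ± 0.0641, adjusted p = 0.00014). Ldhb, whose subunit favours the oxidation of lactate, was at 8.50, 9.38 and 8.58 CPM in WT and at 6.56, 6.35 and 7.24 CPM in PHD2cko BMDMs. All 3 PHD2cko values lay below the WT values, but the difference missed the threshold (log2 -0.39 ± 0.114, adjusted p = 0.0650). It passed in 3 of 8 other settings, among them DESeq2 (adjusted p = 0.0381) and the 6 BMDM libraries fitted alone (adjusted p = 0.0193), and in none of the 6 fits that left out a library.

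Slc16a3 encodes MCT4, the lactate exporter of highly glycolytic cells. It was at 44.9, 40.0 and 42.3 CPM in WT and at 95.4, 88.4 and 86.9 CPM in PHD2cko BMDMs, the largest fold of the 10 genes in BMDMs (2.13-fold, log2 1.09 ± 0.219, adjusted p = 0.0094). Its error was the widest of the 10 in the fit of all 12 libraries, which includes 3T3 libraries with few counts of this gene. In the 6 BMDM libraries alone the adjusted p was 3.1e-09, whereas DESeq2 on all 12 libraries gave 0.114, and 3 of the 6 fits without a library passed. Slc16a1, which encodes MCT1, was at 8.83 to 9.92 CPM in WT and 9.66 to 10.4 CPM in PHD2cko BMDMs and did not pass (log2 0.09, adjusted p = 0.678).

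**Figure D2:**
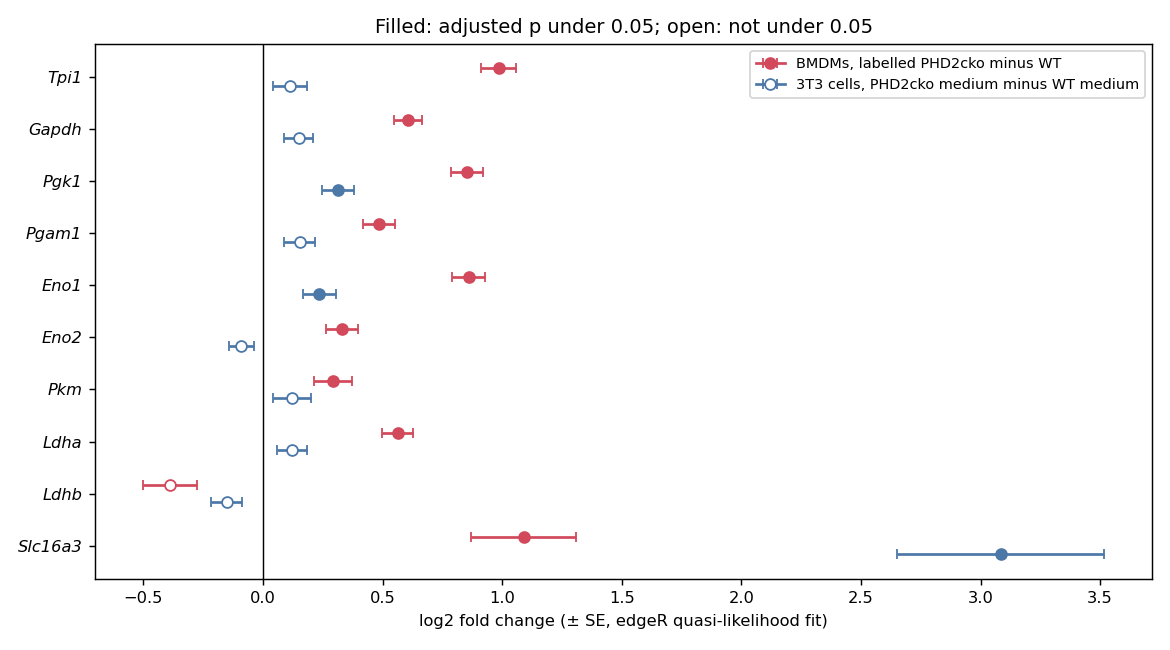
Log2 fold changes with their SE (edgeR, x axis) of the 10 genes (y axis) in BMDMs (red) and in 3T3 cells (blue), filled where the adjusted p was under 0.05. The red points are filled for 9 genes between 0.29 and 1.09 with Ldhb open at -0.39, and the blue points are filled for Pgk1, Eno1 and Slc16a3, the last at 3.08.

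Fewer members rose in the 3T3 cells. In PHD2cko medium 3 of the 10 genes were called higher, Pgk1, Eno1 and Slc16a3, where 8.93% of all genes tested were called higher, and none was called lower, where 6.75% were (Ldhb was lower at an unadjusted p under 0.05, and DESeq2 called none lower). The groups did not overlap for 4 genes, with Pgk1 and Slc16a3 above (15.4% of all genes) and Eno2 and Ldhb below (16.5%). The median log2 fold change was 0.14 over the 10 genes and -0.0046 over all genes tested. The 10 genes together took 0.406% ± 0.0328 (SD, n = 3) of all counts in WT medium and 0.462% ± 0.0201 (SD, n = 3) in PHD2cko medium.

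Pgk1 was at 364, 311 and 306 CPM in WT medium and at 404, 394 and 421 CPM in PHD2cko medium (1.24-fold, log2 0.31 ± 0.0660, adjusted p = 0.0069). It passed in each of the 6 fits without a library, although the adjusted p was 0.0503 when the 6 3T3 libraries were fitted alone. Eno1 was at 301, 277 and 257 CPM in WT medium and at 348, 300.3 and 333 CPM in PHD2cko medium, so that the lowest PHD2cko value lay level with the highest WT value. It passed with all libraries (log2 0.24 ± 0.0681, adjusted p = 0.0352), in 2 of the 6 fits without a library, and not in the 3T3 libraries alone (adjusted p = 0.121).

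The other enzymes of the stretch did not pass in the fit of all 12 libraries. Tpi1 was at 369, 317 and 296 CPM in WT medium and at 363, 338 and 361 CPM in PHD2cko medium, and Gapdh at 756, 697 and 659.9 CPM and at 782, 755 and 806 CPM. Pgam1 was at 347, 307 and 293 CPM and at 354, 333 and 366 CPM, and Pkm at 1365, 1187 and 1156 CPM and at 1416, 1264 and 1355 CPM. Each of these sets overlapped between the media, with log2 fold changes of 0.11 for Tpi1, 0.15 for Gapdh, 0.15 for Pgam1 and 0.12 for Pkm and adjusted p from 0.114 for Gapdh to 0.335 for Pkm. Ldha, at 375, 332 and 312 CPM in WT medium and 369, 361 and 379 CPM in PHD2cko medium, overlapped too (log2 0.12, adjusted p = 0.230). Over 11 other settings, some without replicate 1 in WT medium, Gapdh passed in 3 and Tpi1, Pgam1, Pkm and Ldha in 2 each.

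The minor enolase and lactate dehydrogenase genes lay lower in PHD2cko medium without passing. Eno2 was at 61.9, 59.7 and 60.3 CPM in WT medium and at 57.2, 57.0 and 56.6 CPM in PHD2cko medium (log2 -0.09, adjusted p = 0.269). Ldhb was at 164, 138 and 136 CPM and at 131, 134 and 129.6 CPM (log2 -0.15, adjusted p = 0.142). The groups did not overlap for either gene, and for Ldhb the difference between the means came largely from replicate 1 in WT medium, without which the log2 fold change was -0.04.

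Replicate 1 of the 3T3 cells in WT medium decided how many members were called. It was the highest of its 3 replicates for 9 of the 10 genes, all but Slc16a3. Without it 8 of the 10 genes were called higher in PHD2cko medium, where 11.6% of all genes were, and none lower, where 7.41% were. The log2 fold change was then 0.23 for Tpi1 (adjusted p = 0.00474), 0.22 for Gapdh (0.00881), 0.42 for Pgk1 (8.5e-05), 0.25 for Pgam1 (0.00495), 0.32 for Eno1 (0.00375), 0.22 for Pkm (0.0405) and 0.22 for Ldha (0.00440). Eno2 and Ldhb did not pass without it (adjusted p 0.503 and 0.476). Leaving out any other 3T3 library gave 2 or 3 calls, so the number of enzyme genes called in 3T3 cells, with folds of at most 1.34, rests on whether this library is kept.

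**Figure D3:**
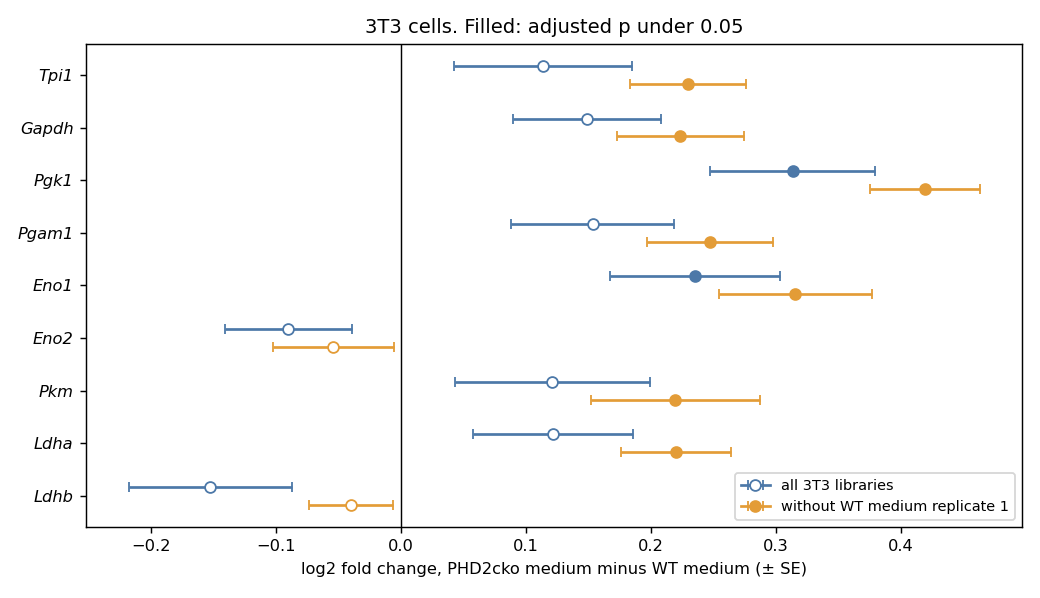
Log2 fold change with its SE in 3T3 cells, PHD2cko medium minus WT medium, for 9 of the 10 genes (Slc16a3, off this scale at 3.08 and 3.16, is left out), with all libraries (blue) and without replicate 1 in WT medium (orange). Filled points had an adjusted p under 0.05, and the 7 enzyme genes with positive values moved to the right and became or stayed filled.

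Slc16a3 had the largest change of the 10 genes in 3T3 cells, from a low base. It had 25, 42 and 11 counts in the WT medium replicates (1.27, 1.52 and 0.581 CPM) and 250, 65 and 266 counts in PHD2cko medium (12.8, 3.76 and 12.9 CPM). The log2 fold change of 3.08 ± 0.434 (8.48-fold, adjusted p = 0.00054) held in all 6 fits without a library (2.81 to 3.45). The macrophage markers moved the same way: their sum, as a percentage of the BMDM level, was 0.0491, 0.0521 and 0.0525% in WT medium and 2.29, 0.513 and 2.05% in PHD2cko medium. The PHD2cko replicate with the lowest share, replicate 2, also had the fewest Slc16a3 counts. When each library's share of the BMDM profile was subtracted, 25, 41 and 11 counts were left in WT medium and 217, 58 and 235 in PHD2cko medium, with a log2 fold change of 2.95 (adjusted p = 0.00077). The subtraction takes any macrophage RNA to have the mean profile of BMDMs of the same label, taken 24 h after seeding. Whether that profile holds in the 3T3 cultures, and the part of macrophage RNA in this change, was not tested. Over all 6 BMDM libraries, WT and PHD2cko together, the mean of Slc16a3 was 49.2 times that in 3T3 cells in WT medium on the scale of plain CPM, more than for any other member. For the 9 other genes this ratio of means lay between 0.0443 for Ldhb and 1.79 for Eno1.

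The label effects of both cell types were then set against each other by an interaction term in the same fit. The effect in 3T3 cells minus that in BMDMs passed for 8 of the 10 genes, with 7 lower (4.58% of all genes) and Slc16a3 higher (7.71% of all genes). For Tpi1 the difference was -0.87 on the log2 scale (adjusted p = 0.00024), for Eno1 -0.62 (0.00099), for Pgk1 -0.54 (0.0022), for Gapdh -0.46 (0.0032), for Ldha -0.44 (0.0063), for Eno2 -0.42 (0.0054) and for Pgam1 -0.33 (0.0343). For Slc16a3 it was 1.99 (adjusted p = 0.0228). Pkm (-0.17, adjusted p = 0.370) and Ldhb (0.24, adjusted p = 0.289) did not pass. The Tpi1, Gapdh, Pgk1, Eno1, Eno2 and Ldha differences passed in all 12 fits that left out a library, Slc16a3 in 8 of them and Pgam1 in 5.

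Levels per gene were compared between WT BMDMs and 3T3 cells in WT medium, groups that also differ in medium and time. The strain of the 3T3 line is not given in the sources used here, so that cell type, strain and culture cannot be told apart. As counted, 4 members were called higher in BMDMs (40.4% of all genes) and 4 lower (44.9% of all genes). Slc16a3 was 35.9-fold higher in BMDMs (log2 5.17, adjusted p = 1.4e-08), and Gapdh, Eno1 and Pkm were higher by log2 0.61, 0.61 and 0.21. Ldhb was lower by the most (log2 -4.05, adjusted p = 6.3e-14), followed by Eno2 (-2.13), Tpi1 (-0.79) and Pgk1 (-0.22). Pgam1 (log2 -0.01, adjusted p = 0.880) and Ldha (log2 -0.13, adjusted p = 0.0683) did not pass.

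For Gapdh and Eno1 this direction depended on how near-identical genes were counted. The count table holds 57 symbols that share at least 50% of their 31-base words with a member's transcripts or carry its name, 43 of them copies of Gapdh. Among the 57 is Tpi-rs8, matched by its name alone, which has no counts and was not found in the annotation used. Of these, 6 reached 100 counts in any library. Gm13394, a processed pseudogene of Gapdh at chr2:28933610-28934609 (-), had 13778, 17559 and 11176 counts in 3T3 cells in WT medium, 12428, 11126 and 13281 in PHD2cko medium, and 0 to 18 counts in the BMDM libraries. Aligned to the coding sequence of Gapdh, 999 of its bases differed at 1 position, which lies in exon 4 of 7 of the Gapdh transcript with the longest coding sequence. The stretch around it is shown because it holds the base that separates the pair, in capitals, on GRCm38 at chr6:125162981-125163040 (-) for Gapdh and chr2:28934229-28934288 (-) for Gm13394.
Gapdh: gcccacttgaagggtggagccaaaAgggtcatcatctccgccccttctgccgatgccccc
Gm13394: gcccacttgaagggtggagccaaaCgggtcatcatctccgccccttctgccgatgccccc
A 31-base word of the aligned stretch that leaves out this base occurs in both genes. Neither how reads were assigned between the genes nor which base the 3T3 cells carry at this position was tested.

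**Figure D4:**
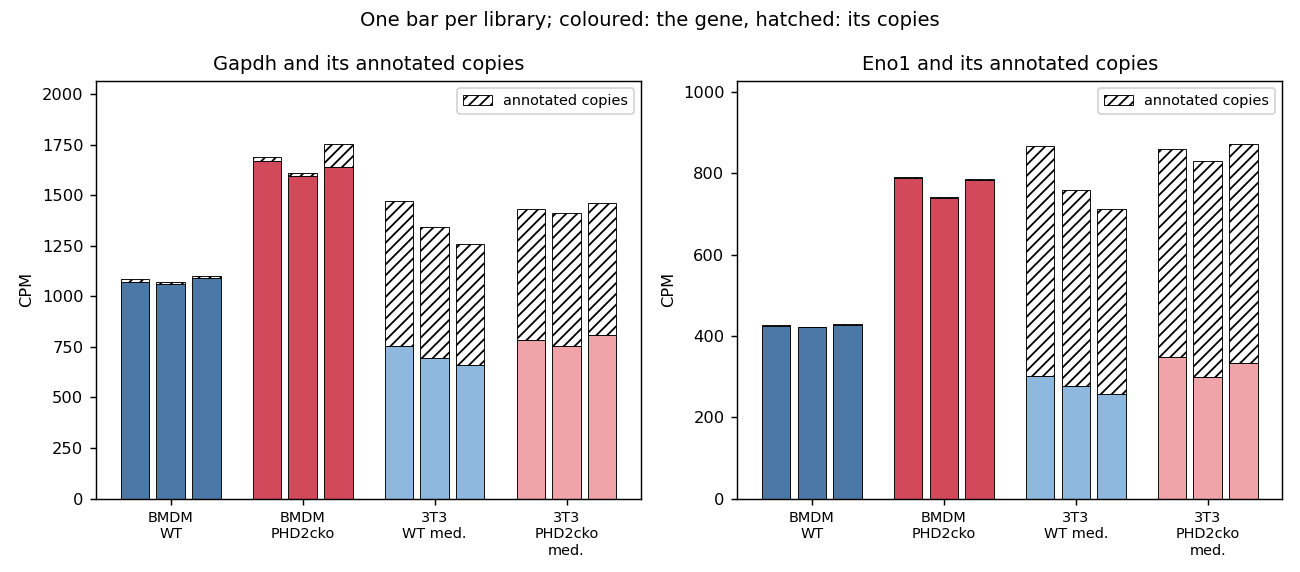
CPM of Gapdh (left) and Eno1 (right), coloured, with the CPM of their annotated copies stacked on top, hatched, for each of the 12 libraries (1 bar each, linear axis from 0). The copies are a thin cap in BMDMs, at most 6.63% of the Gapdh bars, and between 44.8 and 65.3% of every 3T3 bar.

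The same held for Eno1. Eno1b, a gene on chromosome 18 that shares 81.8% of its 31-base words with Eno1, had 9517, 10868 and 6965 counts in WT medium, 8114, 7295 and 8979 in PHD2cko medium, and 0 in all 6 BMDM libraries. Gm4735, a processed pseudogene on chromosome 2 that shares 89.5%, was the other Eno1 copy. In 3T3 cells the copies held 64.3% ± 0.928 (SD, n = 3) of the Eno1 total in WT medium and 61.7% ± 2.17 in PHD2cko medium, against 0.321% and 0.217% in BMDMs. For Gapdh they held 48.1% ± 0.454 and 45.6% ± 0.841 in 3T3 cells, against 1.01% ± 0.134 in WT and 2.97% ± 3.18 in PHD2cko BMDMs. The wide last value came from replicate 3, where Gm10359 and Gm12671, which share 100% of their words with Gapdh, had 966 counts each.

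With the copies added, both genes were lower in WT BMDMs than in 3T3 cells: Gapdh by log2 -0.33 (adjusted p = 0.00032) and Eno1 by -0.87 (adjusted p = 4.3e-08), where the genes alone had been higher. Gapdh with its copies was at 1083, 1069.9 and 1099.5 CPM in WT BMDMs and at 1470.1, 1344 and 1261 CPM in 3T3 cells in WT medium. Eno1 with its copies was at 427, 422 and 428 CPM and at 867, 759 and 713 CPM. The label effects moved less. In BMDMs the same 9 genes were called, and in 3T3 cells Eno1 no longer passed (log2 0.13, adjusted p = 0.217) while Pgk1, whose copy Gm5537 shares 100% of its words, stayed called (log2 0.35, adjusted p = 0.0016).

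Within pairs of related genes, Ldha and Eno1 were the major gene in both cell types. Of Slc16a3 and Slc16a1 alone, Slc16a3 was the major gene in BMDMs and Slc16a1 in 3T3 cells. Shares were computed from CPM per kilobase of median transcript length, and with 3 libraries a group no exact test of them can give a p under 0.1, so they are described only. Ldha made up 97.3% ± 0.175 (SD, n = 3) of Ldha plus Ldhb in WT BMDMs and 98.6% ± 0.0963 in PHD2cko BMDMs, against 70.6% ± 0.526 in 3T3 cells in WT medium and 74.4% ± 0.756 in PHD2cko medium. The replicates of the labels did not overlap in either cell type, 97.1 to 97.4% against 98.5 to 98.7% in BMDMs and 70.3 to 71.2% against 73.6 to 75.1% in 3T3 cells.

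Eno1 made up 98.0% ± 0.174 and 98.6% ± 0.0147 of Eno1 plus Eno2 in WT and PHD2cko BMDMs, and 87.9% ± 0.709 and 90.1% ± 0.692 in 3T3 cells in the respective media. With the copies of Eno1 added, the 3T3 shares were 95.3% and 96.0%. Of the lactate transporters, Slc16a3 made up 92.4% ± 0.755 of Slc16a3 plus Slc16a1 in WT BMDMs, 96.0% ± 0.136 in PHD2cko BMDMs and 2.27% ± 0.955 in 3T3 cells in WT medium. In PHD2cko medium the share was 24.2, 8.30 and 23.8% in the 3 replicates, all above the 1.24 to 3.12% in WT medium. This share depends on the length used: its mean was 18.8% in PHD2cko medium here, 8.15% per kilobase of the longest transcript and 8.0% without length, and in WT medium 2.27, 0.865 and 0.847%. The Slc16a1 side of this share fell in 3T3 cells, from 137, 129 and 127 CPM to 109.5, 113 and 112 CPM (log2 -0.23, adjusted p = 0.0045). Slc16a7, which encodes MCT2 and is outside this pair, was at 104 to 111 CPM in WT BMDMs and 100 to 106 CPM in PHD2cko BMDMs. Without length, this lay above Slc16a3, at 40.0 to 44.9 and 86.9 to 95.4 CPM.

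**Figure D5:**
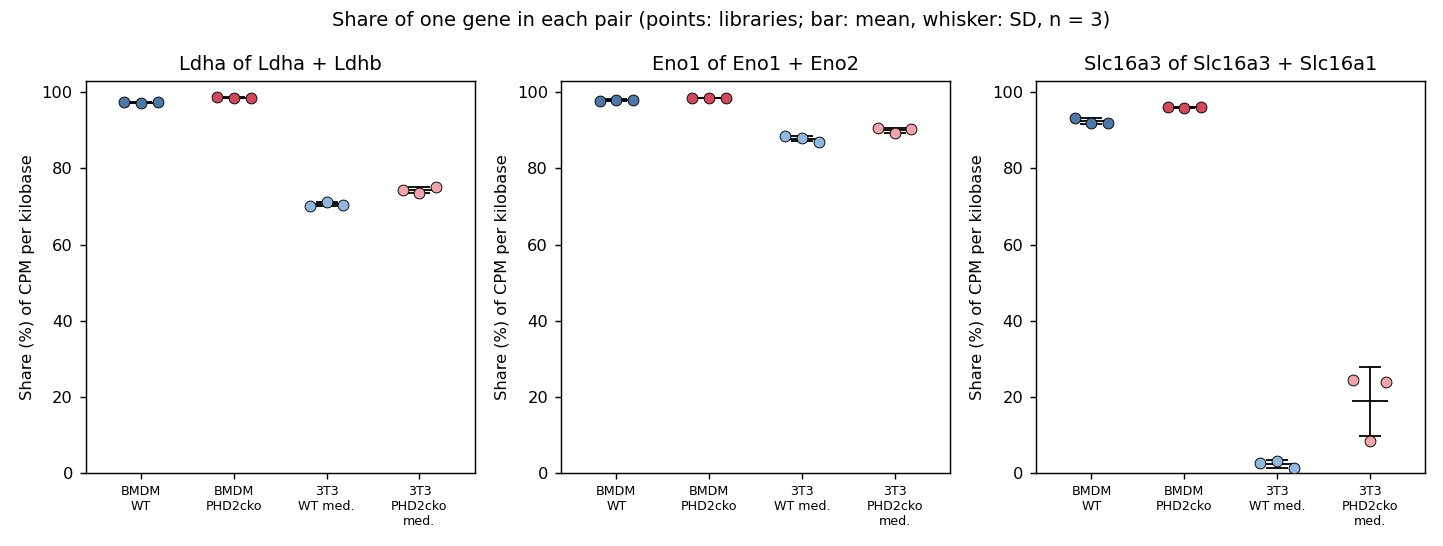
Share in percent of Ldha in Ldha plus Ldhb, of Eno1 in Eno1 plus Eno2 and of Slc16a3 in Slc16a3 plus Slc16a1 (CPM per kilobase of median transcript length), with 1 point per library, a bar at the mean and a whisker of 1 SD (n = 3). BMDM libraries lie above 91% in all 3 panels, and 3T3 libraries lie at 70.3 to 75.1%, 87.1 to 90.6% and 1.24 to 24.2%.

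Per kilobase of median transcript length, the order of levels in WT BMDMs ran from Pkm (1968 CPM per kilobase) through Gapdh (996), Eno1 (549), Ldha (388) and Pgam1 (176) to Tpi1 (157) and Pgk1 (154), with Slc16a3 (26.1), Eno2 (11.3) and Ldhb (10.7) last. The replicate ranges of Tpi1 and Pgk1 overlapped, as did those of Eno2 and Ldhb, and the other neighbours in this order were apart. In 3T3 cells in WT medium Ldhb (177 CPM per kilobase) lay level with Pgk1 (179) and Pgam1 (178), and Slc16a3 came last (0.694). The order depends on the length used and on whether copies are added. Per kilobase of the longest transcript Gapdh (756) lay above Pkm (587) in WT BMDMs. In 3T3 cells in WT medium Ldhb (112) then lay below Pgk1 (179) and Pgam1 (178) with no overlap of the replicates. With copies added at the median length, Pgk1 (166) lay above Tpi1 (157) in WT BMDMs with no overlap. In 3T3 cells in WT medium Eno1 then went from 360, below Ldha (426), to 1009, above it.

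Of 14 isozymes and partners of the members, 10 were tested. In each cell type 1 was called higher and 1 lower, beside 3.38% and 3.35% of all genes in BMDMs and 8.93% and 6.75% in 3T3 cells. In BMDMs Bsg, whose product basigin escorts MCT1 and MCT4 to the membrane, rose (log2 0.26, adjusted p = 0.0424). Emb, whose product embigin is another chaperone of monocarboxylate transporters, fell (log2 -0.53, adjusted p = 0.00047). In 3T3 cells Slc16a7 (MCT2) was called higher from 3, 8 and 11 counts to 40, 8 and 36 counts, and Slc16a1 fell as given above. Slc16a7 had 1501 to 2013 counts in the BMDM libraries. The counts in the media overlapped, and the library with 8 counts in PHD2cko medium is the one with the lowest sum of macrophage markers, 0.513% of the BMDM level against 2.29 and 2.05%. The part of macrophage RNA in this call was not tested.

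Of 17 genes of glucose uptake and upper glycolysis, 15 were tested, beside the same shares of all genes. In BMDMs 4 rose and none was called lower (2 were lower at an unadjusted p under 0.05, among them Hk2): Pfkl, the liver-type phosphofructokinase (log2 1.10, adjusted p = 1.4e-08), Aldoa (0.53), the glucose transporter Slc2a1 (0.46) and Gpi1 (0.38), with a median of 0.09 over the 15. In 3T3 cells Pfkfb3 rose (log2 0.43, adjusted p = 0.0216), Hk2 fell (log2 -0.25, adjusted p = 0.0128), and Hk3 and Aldoc were called higher. Hk3 went from 1, 3 and 5 counts to 202, 55 and 176 and Aldoc from 4, 4 and 3 counts to 95, 20 and 95, and both have over 1000 counts in every BMDM library, 4314 to 6755 and 1202 to 2147. In PHD2cko medium both had their lowest count in replicate 2, the library with the lowest macrophage share, and the part of macrophage RNA in these 2 genes was not tested.

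The other routes for NADH and pyruvate had 5 calls in both lists and cell types, beside the same shares of all genes (3.38% higher and 3.35% lower in BMDMs, 8.93% and 6.75% in 3T3 cells). Of 10 genes of the malate-aspartate and glycerol phosphate shuttles, Slc25a13 rose (log2 0.38, adjusted p = 0.0029) and Slc25a12 fell (log2 -0.17, adjusted p = 0.0380) in BMDMs, both carriers of aspartate and glutamate, and Got1 fell in 3T3 cells (log2 -0.21, adjusted p = 0.0132). Of 9 genes at the branches from 3-phosphoglycerate and pyruvate, Phgdh, the first enzyme of serine synthesis, fell in BMDMs from 148 to 199 counts to 52 to 83 counts (log2 -1.32, adjusted p = 0.00025). Mpc1, a subunit of the mitochondrial pyruvate carrier, fell in 3T3 cells (log2 -0.20, adjusted p = 0.0332). The medians of both lists were within 0.07 of 0 in both cell types.

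Genes outside the list were ranked by how closely they followed the mean of the members over the 12 libraries, with each cell type centred on its own mean. The 5 closest of 9851 genes with a mean of at least 10 CPM were Pgm2 (Pearson r = 0.981), Ywhah (0.979), Rbbp7 (0.976), Aldoa (0.971) and Arhgap18 (0.968). Among the members r ran from 0.991 for Ldha and Pgam1 down to 0.654 for Slc16a3 and -0.695 for Ldhb. These values describe the 12 libraries, which share their labels and depth, and each member is part of the mean it was set against.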

How the data were processed

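The authors deposited estimated counts per gene from single reads of polyA RNA, made with Kallisto on GRCm38 (version not given in the sources used here), as whole numbers without normalization. The kit and its strand handling are not given in the sources used here. Genes were kept by filterByExpr, scaled by TMM and fitted over all 12 libraries with the edgeR 4.0.16 quasi-likelihood test in R 4.3.3, testing both directions. P-values were adjusted over the 14285 genes by the Benjamini-Hochberg method, with a threshold of 0.05. SE was taken from the log2 fold change and its F value. The alternatives used limma 3.58.1 (voom, the method of the study), DESeq2 1.42.0, other filters, libraries left out, copies added and macrophage RNA subtracted. The pipeline was tested on simulated data. Positions come from GENCODE and upstream sequences from RefSeq, both on GRCm38. Copies were found by shared 31-base words. CPM per kilobase assumes even coverage of transcripts. Named genes are the 10 members, genes of the other lists past the threshold, copies with at least 100 counts in a library, and the 5 closest genes by correlation with a pseudocount of 1 CPM. The members and lists were chosen with earlier results of these data known. Intervals were not computed, and the limit of 3 counts covers counting error only. A further allele that both groups of mice share is not reported here.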

Additional observations from a re-analysis of the deposited data

Results flagged for a closer look

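Under the same label contrast, 8 of the 10 genes had effects that differed between the cell types by the interaction test of edgeR's quasi-likelihood fit, given as the effect in 3T3 cells minus that in BMDMs on the log2 scale. The difference was -0.87 for Tpi1, -0.46 for Gapdh, -0.54 for Pgk1, -0.33 for Pgam1, -0.62 for Eno1, -0.42 for Eno2 and -0.44 for Ldha. For Slc16a3 it was 1.99, the only member called with the larger effect in 3T3 cells. For Gapdh and Eno1 the difference with the annotated copies added was -0.56 (adjusted p = 0.0013) and -0.73 (adjusted p = 0.00041). For Slc16a3 the 3T3 libraries in WT medium held 11 to 42 counts, and the macrophage marker share was 2.29, 0.513 and 2.05% of the BMDM level in the PHD2cko medium replicates.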

How the results depend on the processing

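Over the alternatives, the direction of each member held in 140 of 140 values in BMDMs, 170 of 170 in 3T3 cells and 200 of 200 for the difference between cell types, and the side of the threshold held in 127, 147 and 185 of them. In BMDMs 9 or 10 members were called under the settings that kept all BMDM libraries and 6 to 9 without a library. In 3T3 cells 3 were called, 1 with the 6 libraries compared alone (Slc16a3), 2 with copies added, 4 with DESeq2, and 2 to 8 without a library. Without WT medium replicate 1 it was 8, as it was with copies added or with the macrophage share subtracted in addition (both chosen after seeing the data). For the difference between cell types 6 to 9 were called without a library, and for WT BMDMs against 3T3 cells 7 to 8. Between the cell types 3 values reversed: Gapdh (-0.33) and Eno1 (-0.87) with copies added and Pgam1, not called, without 3T3 WT medium replicate 1 (-0.0632 to 0.0522 without a library).

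With copies added the members took 0.534% and 0.598% of all counts in 3T3 cells in WT and PHD2cko medium. The shares below are for WT BMDMs, PHD2cko BMDMs, 3T3 cells in WT and in PHD2cko medium. Per kilobase of the longest transcript Ldha took 96.2, 98.0, 62.6 and 66.9%, Eno1 97.7, 98.4, 86.3 and 88.8%, and Slc16a3 82.0, 90.1, 0.865 and 8.15%. Without length, Ldha took 69.9% in 3T3 cells in WT medium, Eno1 96.8, 97.8, 82.1 and 85.1%, and Slc16a3 81.7, 89.9, 0.847 and 8.0%. With copies, Eno1 took 95.3 and 96.0% in 3T3 cells.

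Differences from the group mean in libraries with the same replicate number had correlations of -0.0342, 0.00521 and 0.01 in BMDMs and 0.0487, 0.0524 and -0.103 in 3T3 cells. With 3 libraries a group, these values cannot show whether libraries with the same number were prepared together. With a replicate block 9 members were called in BMDMs, 3 in 3T3 cells, 7 for the difference and 8 between the cell types. Values were low for Ldhb in BMDMs (6.35 to 9.38 CPM) and for Slc16a3 in 3T3 cells in WT medium (11 to 42 counts).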
